A study of Mus musculus with 16 samples.

Results

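The Krüppel-like factors (KLF) other than KLF1 were examined in erythroblasts of the mouse foetal liver. The 10 genes Klf2, Klf3, Klf4, Klf6, Klf7, Klf9, Klf10, Klf11, Klf12 and Klf13 were taken by symbol from a table of 55416 genes, and all 10 were found. RNA-seq libraries came from E13.5 embryos, from which S1 and S3 erythroblasts had been sorted by Ter119 and CD71, S3 being the later stage. The 16 libraries hold both stages of 8 embryos. These were 4 wild-type (WT) embryos, numbered 0, 1, 5 and 8, 2 heterozygotes (Het, 3 and 4) and 2 homozygous knockouts (KO, 2 and 9). The Het and KO embryos carry 1 or both copies of a deletion of the Nprl3 promoter, which is constitutive and so not restricted to erythroid cells. Nprl3 encodes a subunit of GATOR1, an inhibitor of the growth kinase complex mTORC1. WT 0, WT 8, both Het and KO 9 were male, and WT 1, WT 5 and KO 2 were female. The labels' source fields name an embryonic stem cell line, but the titles and the study's methods give sorted foetal liver cells.

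KLF proteins bind GC-rich and CACCC-box DNA through zinc fingers of near-identical sequence at their carboxy terminus, so that members can compete for the same sites. Their amino-terminal parts differ and sort them into groups. KLF3 and KLF12 bind the corepressor CtBP and repress. KLF9, KLF10, KLF11 and KLF13 bind the corepressor Sin3A. KLF2, KLF4, KLF6 and KLF7 belong with KLF1 to the group that mostly activates through acetyltransferases. KLF1 is the main erythroid member and activates globin and heme synthesis genes. It also activates Klf3, and KLF3 in turn represses part of the KLF1 target genes.

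Total counts per library were between 20666044 and 37609502. Levels are given as CPM (counts scaled to a common library size) after TMM scaling over the 16 libraries. Where genes are compared with each other, levels are given as TPM (counts per exon length, scaled to the same total in every library without TMM). In S1 libraries 6 erythroid markers (Tfrc, Alas2, Slc4a1, Epor, Gata1 and Klf1) summed to between 1318 and 2224 CPM, and in S3 libraries to between 17728 and 29272 CPM. The progenitor markers Kit, Myb and Gata2 summed to between 150 and 221 CPM at S1 and to at most 3.37 CPM at S3. The neutrophil markers were Elane, Mpo, Ngp, S100a8, S100a9 and Ly6g, and Ly6g had no reads in any library. The S1 libraries of WT 0 and WT 8 stood apart from the other 6. Their neutrophil markers summed to 173 and 107 CPM, against 979 to 1438 CPM in the others, and their erythroid markers to between 1838 and 2224 CPM, against 1318 to 1436 CPM. Hepatoblast markers summed to between 234 and 253 CPM in this pair and to at most 128 CPM in the other S1 libraries. The tests that include these embryos were therefore repeated without both of them. WT 0 and WT 8 are also the only male WT embryos, so sex and this difference cannot be told apart within WT. Nprl3 stood at 22.6 to 32.6 CPM in WT S1 libraries, at 12.7 and 12.98 CPM in Het and at 0.319 and 0.676 CPM in KO. At S3 it stood at 146 to 204 CPM in WT, 118 and 146 CPM in Het and 107 and 111 CPM in KO. The study describes transcripts that start at α-globin enhancers inside the gene and share its exons, so whole-gene counts at S3 do not check the deletion.

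In GRCm39 the genes lie, each with its strand and as the deposited table gives them, as Klf2 at chr8:73072877-73075500 (plus), Klf3 at chr5:64960731-64990244 (plus), Klf4 at chr4:55527143-55532466 (minus), Klf6 at chr13:5911481-5920393 (plus), Klf7 at chr1:64068606-64161441 (minus), Klf9 at chr19:23118590-23145498 (plus), Klf10 at chr15:38291707-38300950 (minus), Klf11 at chr12:24701273-24712788 (plus), Klf12 at chr14:100108068-100522115 (minus) and Klf13 at chr7:63536099-63588663 (minus), and counts are over all their exons. The DNA before an annotated start of the genes was read from RefSeq promoters, which were matched exactly to GRCm39, the build of the reads. A promoter was found for 9 of the 10 genes and not for Klf10. The motif CCNCNCCC, which covers the CACCC and GC-rich boxes that KLF proteins bind, was searched on both strands in the 250 bases before the start. It overlaps the GC box GGGCGG. It was found in 8 of the 9 promoters, and in 45.9% of all 32851 promoters searched in the same way. Klf3 held 10 matches, Klf4 9, Klf7 8, Klf11 and Klf13 5 each, Klf2 4, Klf6 and Klf12 2 each and Klf9 none. The later GENCODE mouse release 39 has exons of most of these genes that begin before the RefSeq start, and in some cases before the intervals above, so part of these bases can lie in a gene's own exons. Matches were then counted only up to the first base of the gene's own exons of that release within the 250 bases. This left 7 matches for Klf3, 9 for Klf4, 1 for Klf7 and 0 for Klf11. It left 5 for Klf13, 4 for Klf2, 1 for Klf6 and 2 for Klf12. None of the 250 bases of Klf9 lies before its exons of that release, although all lie before its interval in the deposited table. The Klf7 stretch (chr1:64160549-64160798) and the Klf12 stretch (chr14:100387233-100387482) lie within the intervals of their genes, each before a RefSeq start inside the interval. The GC box was in 7 of the 9 (32.7% of all promoters) and CCAAT in 4 of the 9 (33.8%). The GATA motif AGATAA was in none of the 9 (9.99% of all promoters). The sequences below are shown because Klf3 and Klf6 had the largest rises from S1 to S3, because the direction of Klf13 turned on the scaling, and because Klf4 had a motif-rich promoter and almost no reads. Each runs 5′ to 3′ on the strand of its gene and stops before the gene's own exons in that release. Capitals mark the matches to CCNCNCCC or its reverse complement, and the last capitals of Klf6 begin a match that runs on into the first exon. The intervals are chr5:64960614-64960706 (plus strand) for Klf3, chr13:5911238-5911480 (plus) for Klf6, chr7:63588664-63588913 (minus) for Klf13 and chr4:55532529-55532725 (minus) for Klf4.
Klf3: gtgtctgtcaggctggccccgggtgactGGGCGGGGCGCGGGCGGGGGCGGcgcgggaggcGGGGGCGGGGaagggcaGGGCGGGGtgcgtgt
Klf6: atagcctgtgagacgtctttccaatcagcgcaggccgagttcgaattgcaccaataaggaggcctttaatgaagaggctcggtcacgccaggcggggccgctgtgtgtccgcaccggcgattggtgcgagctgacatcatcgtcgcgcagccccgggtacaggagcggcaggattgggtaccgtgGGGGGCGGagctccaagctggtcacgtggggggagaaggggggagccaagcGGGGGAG
Klf13: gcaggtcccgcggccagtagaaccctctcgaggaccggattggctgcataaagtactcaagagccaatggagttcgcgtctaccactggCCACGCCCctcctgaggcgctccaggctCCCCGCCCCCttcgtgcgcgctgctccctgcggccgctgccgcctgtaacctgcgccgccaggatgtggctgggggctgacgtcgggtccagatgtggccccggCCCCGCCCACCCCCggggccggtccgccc
Klf4: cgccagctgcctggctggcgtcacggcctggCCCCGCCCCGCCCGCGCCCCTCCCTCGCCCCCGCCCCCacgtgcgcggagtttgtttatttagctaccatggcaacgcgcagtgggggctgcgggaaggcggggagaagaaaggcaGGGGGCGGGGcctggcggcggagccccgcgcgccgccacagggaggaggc

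The Klf3 stretch held 7 matches in 93 bases and the Klf4 stretch 9 in 197 bases. Where annotated exons begin before the RefSeq start, the stretch is shorter than the 250 bases searched. A match describes the letters only.

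Per exon length, Klf3 was the most abundant of the 10 genes in WT libraries at both stages. In WT S1 libraries Klf3 stood at 39.03 ± 14.2 TPM (SD, n = 4) and Klf10 at 32.7 ± 14.7 TPM, and these overlapped. Klf11 (9.90 ± 6.42 TPM), Klf13 (9.67 ± 2.95 TPM), Klf9 (9.62 ± 3.54 TPM) and Klf6 (4.83 ± 0.217 TPM) followed, each overlapping the next. Klf7 stood at 1.37 ± 0.314 TPM and Klf2 at 0.785 ± 0.249 TPM, while Klf12 and Klf4 were at 0.105 and 0.0314 TPM. For reference, Klf1 stood at 1297 ± 178 TPM. In WT 1 and WT 5 alone Klf11 stood at 4.26 and 7.08 TPM, below Klf13 (6.76 and 8.27 TPM) and Klf9 (4.99 and 9.68 TPM).

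In WT S3 libraries the order was Klf3 (148 ± 28.0 TPM), Klf6 (32.3 ± 5.19 TPM), Klf10 (26.5 ± 3.27 TPM), Klf11 (20.7 ± 3.48 TPM) and Klf13 (6.72 ± 0.667 TPM). Of these, Klf6 and Klf10 overlapped and the other neighbours did not, and the order was the same in each of the 4 embryos. Klf2, Klf9, Klf7 and Klf12 had means between 0.108 and 0.427 TPM, and each overlapped the next. Klf4 was at 0.00576 TPM. Klf1 stood at 2262 ± 134 TPM. Klf6 was thus the seventh among these 11 genes at S1 and the third at S3, and Klf9 went from the sixth to the eighth.

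**Figure D1:**
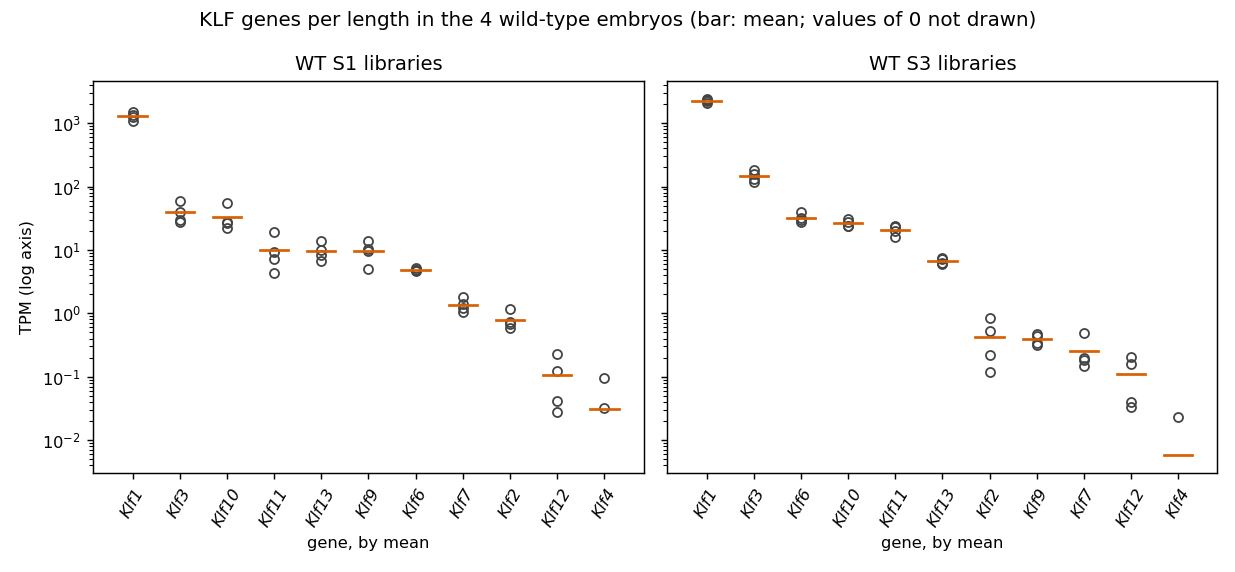
Levels of the 10 KLF genes and Klf1 in TPM (log axis) in WT libraries at S1 (left) and S3 (right), with 1 open circle per embryo and an orange bar for the mean of 4. Klf6 stands at 4.83 TPM at S1 and 32.3 TPM at S3 and Klf9 at 9.62 and 0.390 TPM, and Klf1 lies above all the others in both panels.

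The comparison of S3 with S1 within WT embryos asked how the genes change as erythroblasts mature. Of the 10 genes, 8 passed the filter (a mean normalised count above 10), and edgeR called 7 of these 8 at the adjusted threshold of 0.05. Klf6, Klf3, Klf11, Klf10 and Klf13 rose, and Klf9 and Klf7 fell. Over all 13514 genes tested the share called was 65%, with 29.4% higher and 35.6% lower. For 7 of the 8 every S3 library lay beyond every S1 library, which was so for 60.4% of all genes. Their median log2 change was 1.00, against -0.13 for all genes tested. In RNA from sorted bulk cells, fewer cells of a type and less RNA per cell cannot be told apart.

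Among the genes for CtBP-binding repressors, Klf3 stood in WT embryos 0, 1, 5 and 8 at 115, 81.9, 89.0 and 134 CPM at S1. In the same embryos it stood at 1007, 880.1, 999.6 and 1301 CPM at S3. No S3 library came near any S1 library. Klf3 rose by 3.32 on the log2 scale (SE 0.23, 10.02-fold, edgeR adjusted p = 1.18e-06), and by 3.46 (SE 0.16) without embryos 0 and 8. In Het it stood at 104.4 and 89.8 CPM at S1 and at 1009 and 828 CPM at S3, and in KO at 86.9 and 99.7 CPM and at 756 and 948 CPM. The change within an embryo was between 3.12 and 3.49 in all 8 embryos, the narrowest spread among the 10 genes. By gene span, Klf3 overlaps Gm20033 on the other strand and C230096K16Rik on its own.

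Klf12, whose protein was first known as a repressor of the AP-2α gene, had between 1 and 16 reads in every library and did not pass the filter with TMM in any comparison. With RLE size factors it passed in WT, where the change from S1 to S3 was 1.43 (adjusted p = 0.113 in edgeR). Its level was between 0.0209 and 0.329 CPM at S1 and between 0.123 and 0.896 CPM at S3. It was higher at S3 in all 8 embryos, on these few reads. WT 8 and WT 0 were the highest of the S1 libraries, and WT 8 and KO 9 of the S3 libraries.

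Among the genes for Sin3-binding factors, Klf9, a gene induced by glucocorticoid and thyroid hormone, fell, while with TMM the other members of its group rose. With total counts Klf11 alone of these still rose. Klf9 stood at 12.6, 6.33, 12.3 and 13.3 CPM in the S1 libraries of WT 0, 1, 5 and 8 and at 1.23, 1.495, 0.996 and 1.03 CPM in their S3 libraries. The groups did not overlap, and WT 1 was the lowest of the 8 S1 libraries. Klf9 fell by 3.22 on the log2 scale (SE 0.31, edgeR adjusted p = 7.76e-06), and by 2.93 (SE 0.44) without embryos 0 and 8. It was lower at S3 in 8 of 8 embryos, by 2.03 to 3.71 on the log2 scale. All 5 neutrophil markers tested (Ly6g had no reads) fell in the same comparison, and their part in the fall of Klf9 was not tested.

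Klf11 and Klf10 encode factors first described as early targets of transforming growth factor-β (TGF-β). Klf11 stood at 10.3, 4.87, 8.15 and 16.8 CPM at S1 and at 58.1, 46.7, 56.7 and 64.6 CPM at S3 in WT 0, 1, 5 and 8. It rose by 2.49 (SE 0.35, adjusted p = 0.000125 in edgeR) on the log2 scale, and by 2.99 (SE 0.31) without embryos 0 and 8. Those embryos held the highest S1 levels, at 10.3 and 16.8 CPM against 4.87 to 8.74 CPM in the other 6 S1 libraries. Klf10 stood at 30.2, 24.3, 28.9 and 46.2 CPM at S1 and at 73.1, 65.9, 66.9 and 73.1 CPM at S3. It rose by 1.11 (SE 0.22, adjusted p = 0.00122 in edgeR), and by 1.31 (SE 0.18) without that pair. Every S3 library again lay above every S1 library, and WT 8 was the highest S1 library for both genes. By gene span, Klf10 overlaps Gm35248 on the other strand.

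Klf13 is needed for normal maturation of erythroblasts in mice. It stood at 19.4, 13.4, 16.5 and 20.9 CPM at S1 and at 27.2, 36.3, 36.7 and 28.7 CPM at S3 in WT 0, 1, 5 and 8. The embryos with the lower S1 levels (WT 1 and WT 5) had the higher S3 levels. Klf13 rose by 0.89 (SE 0.20, adjusted p = 0.0027 in edgeR), and by 1.28 (SE 0.21) without embryos 0 and 8. With total counts only the change was -0.10 (adjusted p = 0.665 in edgeR), which ends the call and turns the direction. By gene span in GENCODE mouse release 39, Klf13 overlaps 5 genes on the other strand, among them E030018B13Rik. The counting did not use strand and left out reads assigned to several genes. Whether Klf13 reads were lost in this way was not tested.

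Among the genes for activators, Klf6, an immediate early gene expressed in most tissues, had the largest change among the 10 genes. It stood at 5.78, 5.30, 5.601 and 4.29 CPM at S1 and at 99.1, 80.3, 93.7 and 84.1 CPM at S3 in WT 0, 1, 5 and 8. The lowest S3 library was far above the highest S1 library. Klf6 rose by 4.12 (SE 0.17, 17.4-fold, adjusted p = 1.54e-07 in edgeR), and by 3.99 (SE 0.20) without embryos 0 and 8. No other annotated gene overlaps it.

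Klf7, best known from the development of neurons, stood at 3.75, 2.60, 2.29 and 2.34 CPM at S1 and at 2.28, 0.981, 0.805 and 1.03 CPM at S3. These are 90 to 120 reads at S1 and 15 to 54 reads at S3. Klf7 fell by 1.07 (SE 0.37, adjusted p = 0.0266 in edgeR), and by 1.46 (SE 0.35, adjusted p = 0.0104) without embryos 0 and 8. The call was lost when WT 1, WT 5 or WT 8 was left out (adjusted p = 0.0818, 0.0893 and 0.0624), while the change was between -1.37 and -0.99 with any 1 embryo left out.

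Klf2, which is required for embryonic globin expression in primitive erythroid cells, had between 0 and 21 reads per library. In WT it stood at 0.281 to 0.431 CPM at S1 and at 0.138 to 0.887 CPM at S3. The stages overlapped, and the change was 0.51 (SE 0.51, 95% confidence interval -0.63 to 1.65, adjusted p = 0.405 in edgeR). Klf4, a factor used to reprogramme cells to pluripotency, had at most 4 reads. It had 0 reads in 9 of 16 libraries, each of which allows up to between 0.0616 and 0.207 CPM, where 3 counts are taken as the limit. Klf4 did not pass the filter in any comparison, so no difference in it was tested there, and intervals of this kind cover counting error only.

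**Figure D2:**
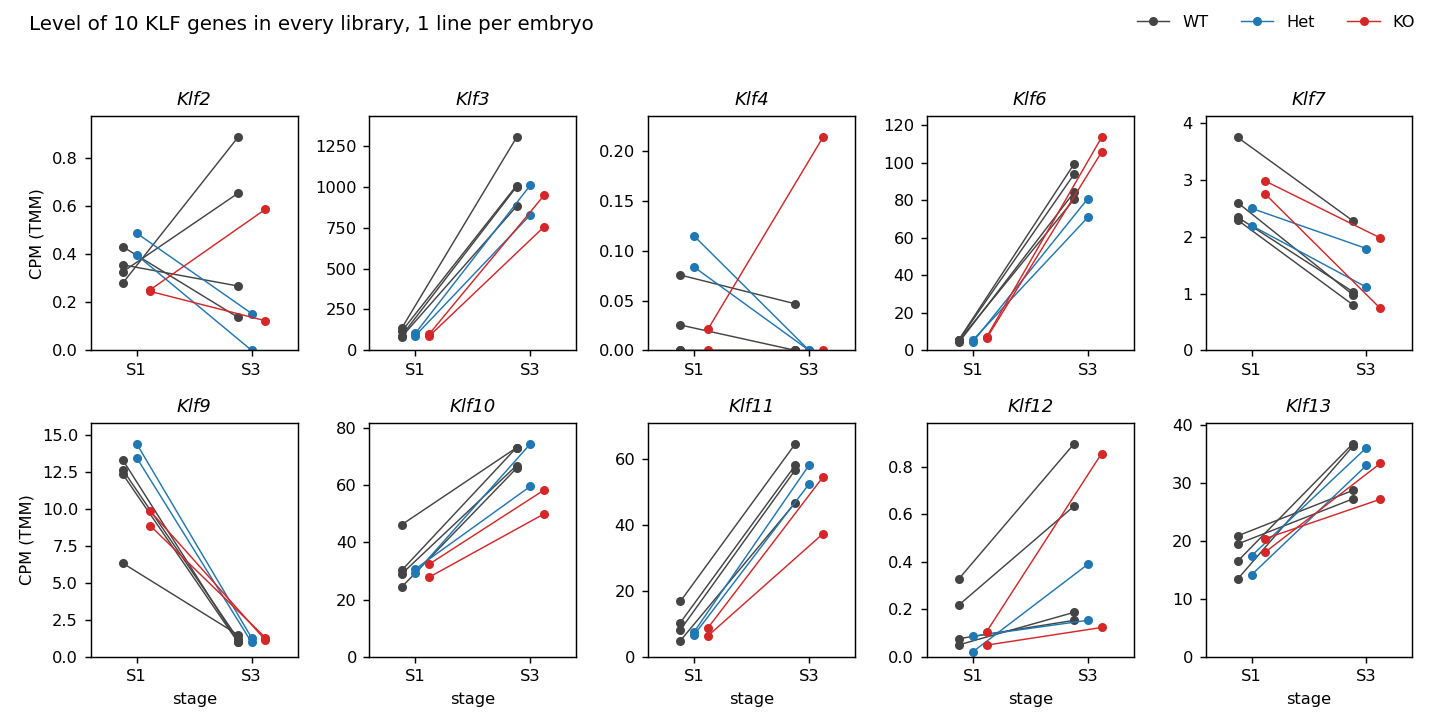
CPM of the 10 genes in each library at S1 and S3, with 1 line per embryo (grey WT, blue Het, red KO), and with a linear axis of its own for each gene. The lines for Klf3, Klf6, Klf10, Klf11 and Klf13 all go up and those for Klf7 and Klf9 all go down, while the lines for Klf2 and Klf4 cross at levels under 1 CPM.

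The sizes of the changes depended on the scaling, and for the smaller rises so did the calls. With TMM the median change of all genes from S1 to S3 was -0.13 in WT, -0.19 in KO and -0.17 in Het, and with total counts alone it was -1.14, -1.03 and -1.07. Of the genes called in WT, 45.2% were higher with TMM and 17.2% with total counts. The change of Klf10 in WT was then 0.13 (adjusted p = 0.621) and that of Klf13 was -0.10 (adjusted p = 0.665), against rises of 1.11 and 0.89 with TMM (all in edgeR). Relative to the median gene they barely moved. Klf10 was 1.24 above it with TMM and 1.27 above it with total counts, and Klf13 was 1.01 and 1.05 above it. Klf6, Klf3, Klf11 and Klf9 kept direction and call under both scalings. In TPM, which sum to the same total in every library, Klf10 in WT was at 32.7 ± 14.7 at S1 and 26.5 ± 3.27 at S3, and Klf13 at 9.67 ± 2.95 and 6.72 ± 0.667.

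KO and Het embryos were compared across the same stages. In KO, 6 of the 7 genes tested were called (52.9% of 13446 genes, with 22.6% higher and 30.3% lower), and in Het likewise 6 of 7 (76.2% of 13085 genes, with 33.5% higher and 42.6% lower). In both, Klf6, Klf3, Klf11, Klf10 and Klf13 rose and Klf9 fell. The changes in KO were 4.00 (SE 0.18) for Klf6, 3.18 (SE 0.21) for Klf3, 2.59 (SE 0.28) for Klf11, 0.83 (SE 0.18) for Klf10, 0.64 (SE 0.20) for Klf13 and -2.96 (SE 0.30) for Klf9. In Het they were 3.94 (SE 0.15), 3.24 (SE 0.14), 2.96 (SE 0.15), 1.16 (SE 0.13), 1.13 (SE 0.15) and -3.63 (SE 0.26), in the same order. The edgeR adjusted p of these calls was at most 0.0396, for Klf13 in KO. When either KO embryo was left out, the calls of Klf10 and Klf13 in KO were lost, and the changes were then 0.84 to 0.85 for Klf10 and 0.41 to 0.88 for Klf13. They were also lost in both genotypes with total counts. With 1 library left per stage, that library was assumed to vary like the other groups. Klf7 had a change of -1.08 (SE 0.52, adjusted p = 0.1299) in KO and -0.68 (SE 0.34, adjusted p = 0.0649) in Het. In KO it was -0.59 without KO 2 and -1.89 without KO 9. With total counts it was called in both (-1.86 and -1.53). With the embryo as a block, Klf7 was called in KO (-1.17, adjusted p = 0.0430 in edgeR).

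**Figure D3:**
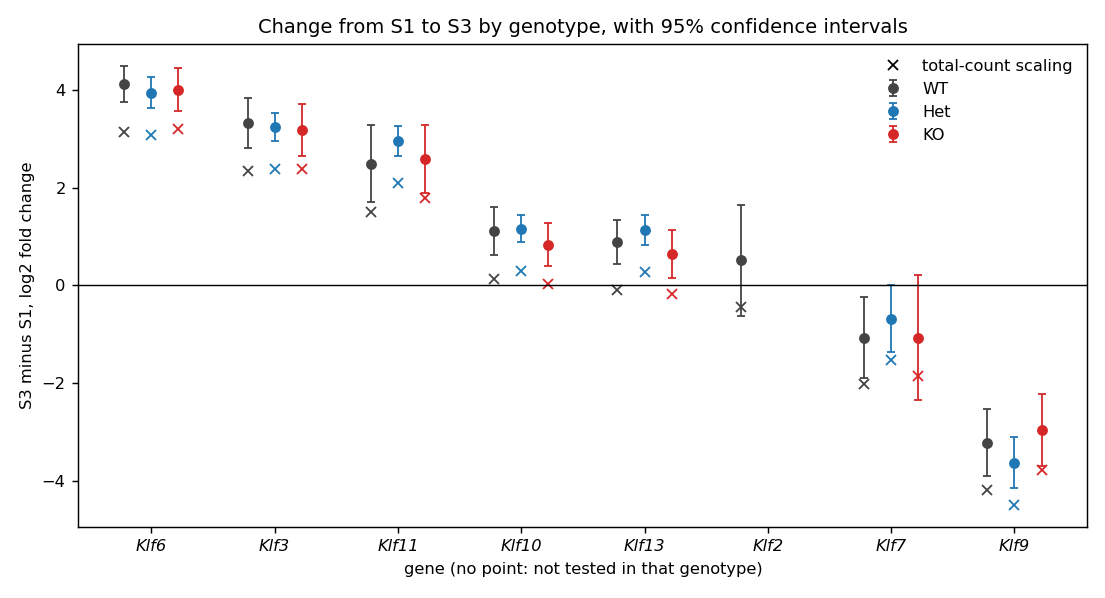
Log2 fold change of S3 against S1 for each gene tested, by genotype (grey WT, blue Het, red KO), where dots and bars are edgeR estimates with TMM and their 95% confidence intervals and crosses are the estimates with total counts. The crosses lie below the dots for every gene, and those of Klf10 and Klf13 lie near 0.

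Whether the change from S1 to S3 differed between genotypes was tested as the interaction of genotype and stage. For KO against WT, 0 of the 8 genes tested were called by edgeR (0.00742% of 13485 genes), 0 had an unadjusted p under 0.05, and DESeq2 called 0. The differences in change were 0.03 for Klf2, -0.13 for Klf3, -0.08 for Klf6, 0.02 for Klf7, 0.28 for Klf9, -0.26 for Klf10, 0.11 for Klf11 and -0.22 for Klf13. The narrowest interval was that of Klf6 (95% confidence interval -0.58 to 0.42), and that of Klf3 ran from -0.84 to 0.58. Without WT 0 and WT 8 the differences were between -0.63 for Klf13 and 0.40 for Klf7, and 0 were called. For Het against WT, 0 of 8 genes were called by edgeR (0% of 13364 genes) or DESeq2, and Klf2 alone had an unadjusted p under 0.05, with both tools. Its difference was -2.92 (SE 1.12, adjusted p = 1.00 in edgeR), and it rests on 0 and 3 reads in the S3 libraries of Het. It was -2.14 without Het 3 and -7.19 without Het 4.

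KO against WT at S3 asked what the loss of Nprl3 does to the genes in the later erythroblasts. In edgeR 0 of the 7 genes tested were called (0.508% of 11804 genes), 1 (Klf6) had an unadjusted p under 0.05, and DESeq2 called 0. For 1 gene both KO libraries lay above every WT library, and for 1 both lay below. Over all genes this held for 6.57% and 12.1%, so the counts are close to the background. The median difference of the 7 genes was -0.04 and that of all genes 0.00.

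Klf6 was the gene above WT. It stood at 106 and 113 CPM in KO against 80.3 to 99.1 CPM in WT at S3, and the difference was 0.34 (SE 0.14, 95% confidence interval 0.02 to 0.66, adjusted p = 0.530 in edgeR). At S1 it stood at 6.40 and 7.10 CPM in KO against 4.29 to 5.78 CPM in WT. The difference there was 0.38 (SE 0.23, 95% confidence interval -0.15 to 0.92, adjusted p = 1.00 in edgeR), so neither stage passed the test. The Het libraries stood at 80.7 and 70.8 CPM at S3 and at 4.48 and 5.43 CPM at S1. Klf6 was thus higher in KO than in WT and Het libraries at both stages, in stages of the same embryos. Without WT 0 and WT 8 the differences of KO from WT were 0.41 (SE 0.16) at S3 and 0.32 (SE 0.26) at S1.

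Klf10 was the gene below WT, with 50.0 and 58.3 CPM in KO against 65.9 to 73.1 CPM in WT at S3. The difference was -0.32 (SE 0.14, 95% confidence interval -0.65 to 0.01, adjusted p = 0.597 in edgeR), and the Het libraries (59.6 and 74.5 CPM) lay on both sides of the WT range. At S1 Klf10 stood at 27.9 and 32.4 CPM in KO and 24.3 to 46.2 CPM in WT, which overlapped (difference -0.10, SE 0.30). For Klf3 the difference at S3 was -0.25 (SE 0.20), for Klf11 -0.25 (SE 0.21) and for Klf13 -0.04 (SE 0.17). Klf9 (0.07, SE 0.35) and Klf7 (0.14, SE 0.56) had few reads at S3. Without WT 0 and WT 8 the differences were -0.065 for Klf3, -0.22 for Klf10, -0.095 for Klf11, -0.20 for Klf13, 0.038 for Klf9 and 0.70 for Klf7. Single libraries moved them as well. Klf3 was at -0.069 without KO 2, -0.41 without KO 9 and -0.11 without WT 8, Klf10 at -0.18 without KO 2, and Klf11 at 0.023 without KO 2, -0.54 without KO 9 and -0.17 without WT 8. The library of KO 2 was the lowest of the 8 S3 libraries for Klf3, Klf10 and Klf11. Macrophage markers summed to 10.0 and 25.8 CPM in KO and to between 21.4 and 57.7 CPM in WT at S3, and their part in these values was not tested.

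At S1, edgeR called 0 of the 8 genes tested in KO against WT (0.00712% of 14039 genes), 0 had an unadjusted p under 0.05, and DESeq2 called 0. Klf6 lay above every WT library and Klf2 below (0.245 and 0.253 CPM against 0.281 to 0.431 CPM, 10 and 12 reads in KO), beside 6.17% of all genes above and 3.75% below. For 4 of the 8 genes the sign at S1 turned without WT 0 and WT 8. The difference of Klf3 went from -0.17 (SE 0.26) to 0.14 (SE 0.18) without them, that of Klf9 from -0.25 (SE 0.34) to 0.01 (SE 0.35), that of Klf10 from -0.10 (SE 0.30) to 0.19 (SE 0.23) and that of Klf11 from -0.41 (SE 0.48) to 0.23 (SE 0.34). The other 4 kept their sign. Klf13 was at 0.14 (SE 0.25) with the pair and 0.38 (SE 0.25) without it, Klf7 at 0.08 (SE 0.30) and 0.24 (SE 0.30), and Klf2 at -0.48 (SE 0.44) and -0.44 (SE 0.55).

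Het against WT gave 0 called of 7 genes tested at S3 (0% of 11746 genes) and 0 of 8 at S1 (0% of 13818 genes) in edgeR, with 0 at an unadjusted p under 0.05 and 0 by DESeq2 at either stage. No gene of the 7 was free of overlap at S3, beside 14.8% of all genes. Both Het embryos were male, and with sex as a covariate in edgeR Klf13 was called at S3 (0.37, adjusted p = 0.0496), as were 2075 of all 11746 genes in that fit. DESeq2 with sex did not call it (0.34, adjusted p = 0.101). Differences at S3 were between -0.17 for Klf6 and 0.26 for Klf7, and at S1 between -0.52 for Klf11 and 0.32 for Klf2. Without WT 0 and WT 8 they were between -0.11 for Klf6 and 0.80 for Klf7 at S3 and between -0.12 for Klf6 and 0.60 for Klf9 at S1. Klf9 alone of the genes tested did not overlap, with 14.4 and 13.47 CPM in the S1 libraries of Het against 6.33 to 13.3 CPM in WT (0.31, SE 0.33), beside 18% of all genes. The difference was 0.60 (SE 0.33) without WT 0 and WT 8. KO and Het are compared with the same WT libraries, so their differences are not independent of each other.

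**Figure D4:**
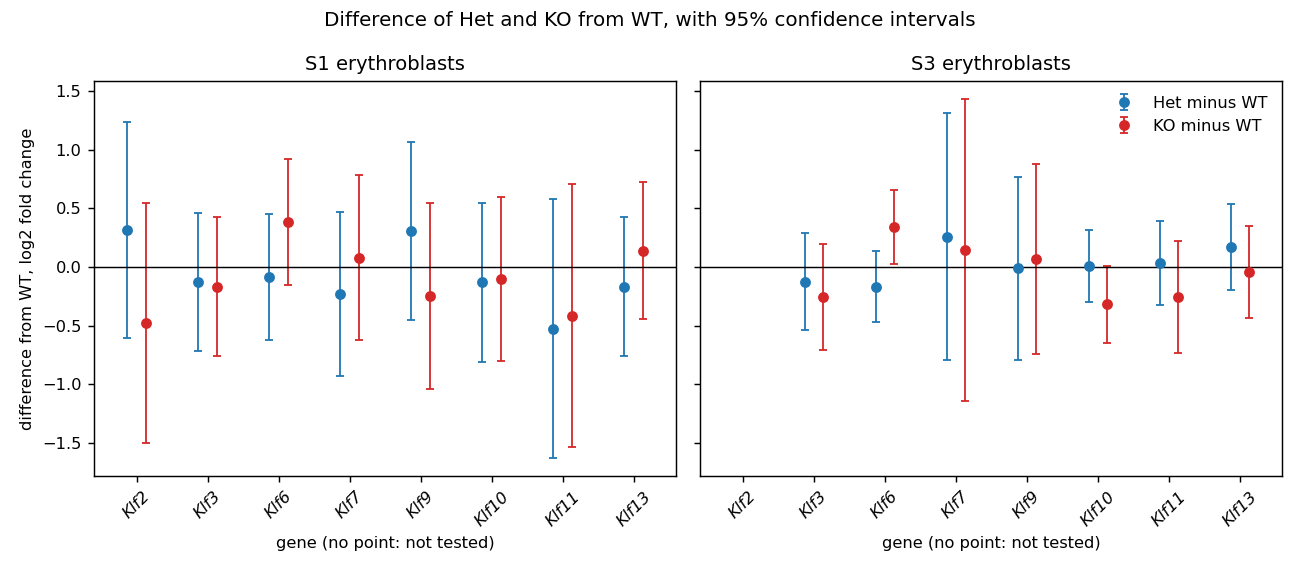
Log2 difference of Het (blue) and KO (red) from WT for each gene tested at S1 (left) and S3 (right), with 95% confidence intervals from edgeR. All intervals include 0 except that of Klf6 in KO at S3 (0.02 to 0.66), and those of Klf3, Klf6, Klf10, Klf11 and Klf13 are narrower at S3 than at S1.

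The genes also differed from library to library within a stage. After the mean of each stage was subtracted, Klf3, Klf10 and Klf11 varied together over the 16 libraries, with Pearson r of 0.82 (Klf3 and Klf10), 0.86 (Klf3 and Klf11) and 0.88 (Klf10 and Klf11) in log2 CPM. The same measure for Klf6 was -0.28 with Klf3, -0.38 with Klf10 and -0.29 with Klf11. These values describe libraries that share depth, scaling and cell content, and WT 8 was high and KO 2 low for the first group. Over both stages, the genes with the most similar levels were Btrc for Klf3 (r = 0.999), Mff and Mad2l1bp for Klf6 (0.997 and 0.996), Pigq and Shb for Klf11 (0.997 and 0.996) and Odf2 and Tmpo for Klf10 (0.987 and 0.986). For Klf13 they were Gm44861 and Tusc1 (0.974 and 0.972), for Klf9 Get1 and Mogs (0.993 for each), for Klf7 Kcna3 and Slc35d3 (0.943 and 0.926) and for Klf2 Ets1 and Slc26a10 (0.836 and 0.793). Each r is over 16 libraries and contains the step between the stages, which 65% of the genes tested in WT share in one direction or the other.

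The remaining genes of the family and of its partners were taken from lists, whose counts stand beside 29.4% of all genes higher and 35.6% lower from S1 to S3 in WT. Of 7 other KLF genes, 5 were tested in WT from S1 to S3, 2 rose and 1 fell. Klf1 rose by 2.19 (SE 0.16), Klf5, best known from gut epithelium, rose by 0.80 (SE 0.27), and Klf8, a CtBP-binding repressor, fell by 1.23 (SE 0.40). Of the SP genes, which encode the closest relatives of the KLF proteins, 4 of 9 were tested and 3 rose. These were Sp2 (2.52, SE 0.23), Sp3 (1.62, SE 0.26) and Sp4 (1.25, SE 0.26). Of 10 corepressors, 9 were tested, 4 rose and 3 fell. Ctbp2, which encodes a CtBP that KLF3 binds, fell by 3.83 (SE 0.23), while Zfp217 (1.91, SE 0.25) and Sin3b (0.94, SE 0.17) rose. Of 4 coactivators, the acetyltransferase genes Kat2b (1.25, SE 0.29) and Crebbp (0.90, SE 0.23) rose and Smarca4, the ATPase of the SWI/SNF remodelling complex, fell by 0.76 (SE 0.15).

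Of 3 genes known to be repressed by KLF3, Lgals3 rose by 2.01 (SE 0.37), Klf8 fell as above, and C1qtnf12 was at -1.18 (SE 0.78, adjusted p = 0.205 in edgeR). Lgals3 is also expressed by macrophages, and 6 of the 8 macrophage markers rose in the same comparison, in which 29.4% of all genes rose. Their part in the value of Lgals3 was not tested. The counts of the next lists too stand beside 65% of all genes called. Of 15 immediate early genes, 10 were tested, 5 rose and 3 fell, among them Ier3 (3.99, SE 0.21), Dusp1 (4.33, SE 0.34) and Fos (3.19, SE 0.29), all of which rose. Of 5 glucocorticoid-induced genes, all were tested, 0 rose and 3 fell, namely Zbtb16 (-5.89, SE 0.83), Tsc22d3 (-1.20, SE 0.28) and Fkbp5 (-1.55, SE 0.42). Of 5 early TGF-β target genes, 3 were tested. The repressor genes Tgif1 (-3.73, SE 0.37) and Ski (-1.78, SE 0.44) fell, and Skil rose by 0.83 (SE 0.32). The median change was 1.62 in the immediate early list, -1.20 in the glucocorticoid list and -1.78 in the TGF-β list, beside -0.13 for all genes. With total counts the rises of Klf5 (-0.19), Sin3b (-0.039), Crebbp (-0.080), Skil (-0.14), Sp4 (0.27) and Kat2b (0.26) were no longer called, C1qtnf12 was called lower (-2.17), and the other list genes named above kept direction and call.

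None of these listed genes was called in KO against WT at S3 by edgeR, beside 0.508% of all genes. The smallest adjusted p-values were those of Tsc22d3 (1.75, SE 0.31, adjusted p = 0.0662), Zfp36 (1.12, SE 0.22, adjusted p = 0.0851), Lgals3 (-1.83, SE 0.39, adjusted p = 0.119) and Junb (0.86, SE 0.19, adjusted p = 0.129). Over the whole immediate early list both KO libraries lay above all WT libraries in 4 of 10 genes tested and below in 2, beside 6.57% and 12.1% of all genes. All 8 macrophage markers were below 0 in the same comparison (median -1.27, 1 called lower), as were all 6 hepatoblast markers (median -1.49, 0 called by edgeR), and their part in the value of Lgals3 was not tested. Among the other KLF genes, Klf15 was at -1.83 (SE 0.68, adjusted p = 0.461) and Klf16 at -0.18 (SE 0.17, adjusted p = 0.873). Klf1 was at -0.08 (SE 0.14) at S3 and 0.07 (SE 0.19) at S1. The values of the SP genes Sp3 and Sp1 were -0.36 (SE 0.26) and -0.32 (SE 0.30), of the corepressors Zfp217 and Ctbp1 -0.27 (SE 0.24) and -0.10 (SE 0.14), and of the coactivators Smarca4 and Kat2b 0.30 (SE 0.13) and 0.24 (SE 0.14). C1qtnf12 (-1.25, SE 0.96), Sgk1 (0.67, SE 0.64), Skil (-0.53, SE 0.29) and Tgif1 (0.67, SE 0.52) had adjusted p-values of 0.701 or more.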

How the data were processed

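The authors mapped reads from poly(A) RNA, amplified before library preparation, to mm39 (GRCm39) with STAR 2.7.9 and deposited raw counts per gene made with featureCounts 1.6.4 (read pairs, strand not used, reads of several places or genes left out). Amplified reads are not independent molecules. Gene symbols came from GENCODE mouse release 39 (54749 of 55416 matched), and 4 library columns of no sample analysed here were not used. CPM and TPM were computed from these counts, TPM with the deposited exon lengths.

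Counts were tested with edgeR 4.0.16 (glmQLFit, glmQLFTest, TMM) in R 4.3.3, on genes with a mean normalised count above 10 over the libraries compared, with Benjamini-Hochberg adjustment over all genes and a threshold of 0.05. Only the groups compared entered a fit, with an exception. Where leaving out an embryo left 1 library per stage, the spread came from the remaining libraries of all groups. The code was tested on simulated data. Embryos are the replicates. Stages share an embryo by its number in the labels. The correlation of deviations of the libraries of an embryo was 0.0462 for Het, 0.415 for KO and 0.0699 to 0.332 for WT over 13402 genes, and the block was an alternative, since the study's methods name none. DESeq2, which those methods name, was another, here in version 1.42.0. The others were RLE size factors, total counts only, globin genes left out of the scaling, no filter on low counts, all 16 libraries in one fit, sex as a covariate, each embryo left out and, chosen after seeing the data, WT embryos 0 and 8 left out.

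Genes named are the 10 KLF genes in every comparison, Klf1, Nprl3, from each list up to 3 with the smallest p in S3 against S1 of WT and up to 2 in KO against WT at S3, and the 2 most correlated genes of each. A marker and a correlated gene are not reported here. The members and lists were chosen with earlier results of these data known.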

Additional observations from a re-analysis of the deposited data

Results flagged for a closer look

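In WT groups of 4 libraries, 16 groups of values were checked for a single distant library by Dixon's test, and 2 were found. Chance gives about 1 in 20. Klf7 in WT S3 libraries stood at 2.28 CPM in embryo 0, against 0.805 to 1.03 CPM in the other 3, with a gap of 0.845 of the range. Klf9 in WT S1 libraries stood at 6.33 CPM in embryo 1, against 12.3 to 13.3 CPM in the other 3, with a gap of 0.862 of the range. Without WT 0 the change of Klf7 from S1 to S3 was -1.37 (adjusted p = 0.00768 in edgeR), and without WT 1 that of Klf9 was -3.54 (adjusted p = 8.11e-06 in edgeR).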

How the results depend on the processing

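The numbers of KLF genes called in each comparison did not move by over 1.5 times under any alternative, except for Het against WT at S3, where sex as a covariate in edgeR gave 1 (Klf13) in place of 0. Values that changed sign were of differences that were not called, except those of Klf13 from S1 to S3 in WT and KO with total counts, and the cause was not tested. With total counts only, the signs turned to give for KO against WT at S3 Klf13 0.047, for Het against WT at S3 Klf10 -0.051 and Klf11 -0.022, for S3 against S1 in WT Klf2 -0.44 and Klf13 -0.10, for S3 against S1 in KO Klf13 -0.17, for the interaction for KO Klf3 0.033 and Klf6 0.058 and for the interaction for Het Klf3 0.035. Without WT embryos 0 and 8, an alternative chosen after seeing the data, the signs turned to give for KO against WT at S1 Klf3 0.14, Klf9 0.013, Klf10 0.19 and Klf11 0.23, for Het against WT at S3 Klf3 0.054, for Het against WT at S1 Klf3 0.21, Klf10 0.19, Klf11 0.15 and Klf13 0.10, for the interaction for KO Klf6 0.025, Klf9 -0.026 and Klf11 -0.39 and for the interaction for Het Klf10 -0.16, Klf11 -0.031 and Klf13 -0.16. With sex as a covariate in edgeR, the signs turned to give for Het against WT at S3 Klf7 -0.15, Klf9 0.047, Klf10 -0.064 and Klf11 -0.088. With sex as a covariate in DESeq2, the signs turned to give for Het against WT at S3 Klf7 -0.16, Klf9 0.025, Klf10 -0.090 and Klf11 -0.11. With all 16 libraries in one fit, the signs turned to give for Het against WT at S3 Klf10 -0.058 and Klf11 -0.032. Leaving out 1 embryo at a time turned signs in values that ranged for KO against WT at S3 Klf7 -0.72 to 0.71, Klf9 -0.013 to 0.19, Klf11 -0.54 to 0.023 and Klf13 -0.17 to 0.11, for KO against WT at S1 Klf3 -0.28 to 0.0016 and Klf10 -0.23 to 0.15, for Het against WT at S3 Klf3 -0.25 to 0.012, Klf7 -0.14 to 0.71, Klf9 -0.20 to 0.16, Klf10 -0.14 to 0.15 and Klf11 -0.050 to 0.12, for Het against WT at S1 Klf3 -0.25 to 0.045, Klf6 -0.23 to 0.047 and Klf10 -0.26 to 0.13, for S3 against S1 in WT Klf2 -0.067 to 0.93, for the interaction for KO Klf2 -1.45 to 0.70, Klf7 -0.79 to 0.50, Klf11 -0.20 to 0.24 and Klf13 -0.46 to 0.021 and for the interaction for Het Klf6 -0.39 to 0.061 and Klf10 -0.15 to 0.25. The pairing of stages by embryo, fitted as a replicate block, changed the call of Klf7 from S1 to S3 in KO and no other call of the 10 genes, and turned Klf11 in the interaction for KO to -0.022. The number of all genes called moved more. For KO against WT it was 60 at S3 and 1 at S1, and it was 258 and 45 with DESeq2, 356 and 7 without the filter, 101 and 2 with all libraries in one fit, 522 and 21 with sex in edgeR, and 727 and 168 with sex in DESeq2. At S3 it was 11 to 44 with 1 embryo left out and 17 without WT 0 and WT 8. For Het against WT it was 0 at both stages, and 2075 and 381 with sex in edgeR, 2077 and 815 with sex in DESeq2 and 1 and 22 with DESeq2. It was 57 and 0 without the filter, 6 and 5 without WT 0 and WT 8, and at most 3 at S3 and 0 at S1 with 1 embryo left out. Reads limit Klf2, Klf4 and Klf12, and groups of 2 embryos limit the other genotype differences.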
